A study of Mus musculus with 2 samples.

Results

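The genes described here carry iron through the gut wall or hold and recycle it inside cells. They are Slc40a1, Slc11a2, Cybrd1, Heph, Fth1, Ftl1, Tfrc and Hmox1, a list of 8 chosen by name, and all 8 were among the 32285 genes of both count matrices. The study was a comparison of mouse gut polyps with normal duodenum by droplet single-cell RNA sequencing. The WT library held normal duodenum of 3 pooled Lkb1+/+;Myh11-Cre/ERT2 mice. The Lkb1_Het library held polyps of 3 pooled Lkb1flox/+;Myh11-Cre/ERT2 mice. Both groups therefore carried the tamoxifen-inducible Cre recombinase that the Myh11 promoter drives in smooth muscle, and they differed both in 1 floxed allele of Lkb1, the kinase gene that is mutated in Peutz-Jeghers syndrome, and in the tissue taken. The source label of both samples names the duodenum, so the site of the polyps is not settled by the labels. Mouse ages were not given in the sources used here. Each group was 1 library whose mice cannot be told apart, so no test was possible, and every interval below is a 95% interval for counting error only.

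Dietary iron enters the body through enterocytes, the absorptive cells of the duodenal villus. Cybrd1 (duodenal cytochrome b) reduces ferric iron at the brush border, and Slc11a2 (DMT1) carries the ferrous iron into the cell. Ferritin, a shell of heavy chains (Fth1) and light chains (Ftl1), stores it. Slc40a1 (ferroportin), the only known iron exporter of mammals, releases it at the basal side, where the ferroxidase Heph (hephaestin) oxidises it for loading onto transferrin. Most other cells take iron up through Tfrc, the transferrin receptor, and dividing cells need much of it. Macrophages recover iron from the haem of old red cells with Hmox1 (haem oxygenase 1) and export it through the same ferroportin.

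Part of this set is controlled after transcription by iron regulatory proteins, which bind short hairpins in the messenger RNA and block translation from a 5′ UTR or protect the transcript from a 3′ UTR. The hairpins are shown to mark which members hold a match to the pattern given next, and in which UTR. The search does not divide the members by control, since a hairpin of another form would be missed. The transcripts of the GENCODE annotation of GRCm38 (mm10) were searched on the sense strand for a C, any 5 bases, the loop CAGTGN with a last base other than G, and 5 bases that pair with the first 5, G-T pairs allowed. A match was found in the 5′ UTR of Slc40a1, Fth1 and Ftl1 and at 4 places in the 3′ UTR of Tfrc. Of 20916 genes with a 5′ UTR, 23 held such a match (0.110%), and of 21707 with a 3′ UTR, 100 did (0.461%). None was found in a UTR of Slc11a2, Cybrd1, Heph or Hmox1, which says only that these letters are not there. In the lines below the loop is in capitals and each sequence runs 5′ to 3′ on the gene's own strand.
Slc40a1 5′ UTR, chr1:45925465-45925493 (minus strand): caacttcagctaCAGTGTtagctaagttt
Fth1 5′ UTR, chr19:9982732-9982760 (plus strand): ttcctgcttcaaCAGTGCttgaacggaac
Ftl1 5′ UTR, chr7:45459779-45459807 (minus strand): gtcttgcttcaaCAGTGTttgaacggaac
Tfrc 3′ UTR, chr16:32631219-32631247 (plus strand): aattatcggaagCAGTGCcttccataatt
Tfrc 3′ UTR, chr16:32631598-32631626 (plus strand): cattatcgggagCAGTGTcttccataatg
Tfrc 3′ UTR, chr16:32631663-32631691 (plus strand): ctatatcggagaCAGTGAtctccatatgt
Tfrc 3′ UTR, chr16:32631710-32631738 (plus strand): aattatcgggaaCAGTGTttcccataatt
The remaining members lie at chr15:100387898-100425072 (Slc11a2, minus strand), chr2:71117923-71142926 (Cybrd1, plus strand), chrX:96455359-96574485 (Heph, plus strand) and chr8:75093621-75100589 (Hmox1, plus strand) in the same build. The assay reads the 3′ end of transcripts, so it does not separate transcripts of a gene that start at different places, and it measures RNA, not the translation that the 5′ hairpins control.

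The WT matrix held 9950 barcodes and 39222238 UMIs (unique molecular identifiers, one per captured transcript), and the Lkb1_Het matrix 14327 barcodes and 63566462 UMIs. After filters and doublet removal 3167 and 7887 cells remained, with a median of 2421 and 2318 UMIs. In WT 64.9% of barcodes were over the limit on mitochondrial RNA, against 39.1% in Lkb1_Het. The libraries shared 44 barcodes, 9 of them kept cells. Stk11, the gene of Lkb1, stood at 28.2 CPM (26.0 to 30.5) in WT and 38.6 CPM (36.9 to 40.4) in Lkb1_Het, where CPM is the UMIs of a gene per 1000000 UMIs of the cells named. It was thus not lower in the library of the floxed allele, but the Cre is driven in smooth muscle, and a 3′ count outside the deleted part would not show a deletion.

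Cells were placed in classes by the UMIs of marker genes, none of them an iron gene. WT gave 384 enterocytes, 90 crypt cells (the dividing cells at the villus base), 22 macrophages and 37 fibroblasts. Lkb1_Het gave 975 gastric cells (cells with surface mucous genes of the stomach), 172 crypt cells, 267 macrophages and 224 fibroblasts, but 1 enterocyte. WT held 14 gastric cells. The largest WT class was 971 cells with pancreatic acinar markers, 30.7% of its kept cells, followed by 797 T cells. Lkb1_Het held 17 acinar cells. The WT library thus held pancreatic cells beside duodenum, and whether its other cells or its free RNA came partly from pancreas was not tested. The named cells carried their defining genes, for example Fabp1 at 21452 CPM in enterocytes, Olfm4 at 2475 CPM in WT crypt cells, C1qa at 4359 and 2477 CPM in WT and Lkb1_Het macrophages, Tff1 at 91657 CPM in polyp gastric cells and Col1a2 at 1483 and 1872 CPM in WT and Lkb1_Het fibroblasts. The crypt cells of Lkb1_Het went against their name, since their 10 leading genes held 2 markers of Muc6 glands and 1 crypt marker, and they are not compared with the WT crypt. A lower level in a class cannot be told apart from a changed mix of cells within it.

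Slc40a1, the exporter, had its highest level by summed UMIs in enterocytes of the normal duodenum. It stood at 202 CPM (190 to 214) in WT enterocytes, from 1096 UMIs, and this class held 79.4% of its UMIs in the library. The next classes were unclassed epithelium at 58.2 CPM and macrophages at 56.5 CPM, the latter from 5 UMIs in 3 of 22 cells, followed by fibroblasts at 22.9 CPM. Crypt cells stood at 3.20 CPM (1.29 to 6.6) and T cells at 3.64 CPM. By summed UMIs enterocytes were clear of every other class. The order of the following classes was not resolved, since the interval of each overlapped the next. When each cell counted equally, enterocytes stood at 150 CPM and macrophages at 138 CPM, so the lead over macrophages depends on the way of averaging. In Lkb1_Het the macrophage was the highest class of at least 20 cells, at 59.5 CPM from 42 UMIs in 24 of 267 cells, and clear of the next. Enteroendocrine cells at 19.4 CPM and fibroblasts at 17.8 CPM came after it. Muc6 gland cells had 2.62 CPM and gastric cells 0.916 CPM, the latter from 13 UMIs.

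Slc11a2, the importer, showed the same normal peak with a flatter floor. It stood at 183 CPM (171 to 194) in WT enterocytes, clear of all other classes, and the next were fibroblasts at 27.5 CPM and unclassed epithelium at 27.4 CPM. Crypt cells had 14.2 CPM (9.64 to 20.1), T cells 11.6 CPM and macrophages 11.3 CPM from 1 UMI. In Lkb1_Het no class was clear of the next: macrophages had 21.2 CPM, crypt cells 15.2, Muc6 gland cells 12.7 and gastric cells 5.14. Heph, the ferroxidase of export, reached 70.4 CPM in WT enterocytes, 22.5 in unclassed epithelium, 15 in enteroendocrine cells and 8.70 in crypt cells. It had 0 UMIs in WT macrophages, fibroblasts, plasma cells and Muc6 gland cells. In Lkb1_Het Heph was at 5.83 CPM or below in every class of at least 20 cells.

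Cybrd1, the brush border reductase, followed another pattern. WT enterocytes held 7.00 CPM (38 UMIs in 17 of 384 cells), and 1 cell gave 10 of those UMIs. WT fibroblasts were the highest class of at least 20 cells, at 82.6 CPM from 18 UMIs. The 14 gastric cells of WT stood at 117 CPM (79.7 to 166) from 31 UMIs, and WT crypt cells at 0. In Lkb1_Het gastric cells led with 39.5 CPM from 561 UMIs, which was 70.9% of the UMIs of the gene in that library. They were clear of fibroblasts at 16.2 CPM, and Muc6 gland cells stood at 5.63 CPM. Even there the gene was seen in 168 of 975 gastric cells.

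The ferritin chains were present in every class of at least 20 cells. Fth1 stood at 34904 CPM in WT enterocytes, 18801 in macrophages, 12916 in fibroblasts, 3856 in crypt cells and 852 in plasma cells. All of these differed beyond counting error. Among the Lkb1_Het classes of at least 20 cells macrophages led at 16008 CPM, smooth muscle cells had 10203 CPM, fibroblasts 6751 CPM and gastric cells 3142 CPM. The 19 neutrophils of Lkb1_Het, left out of this order, held 792 Fth1 UMIs of 26048, a larger share than in macrophages. Ftl1 peaked in macrophages of both libraries, at 9519 CPM in WT and 5067 CPM in Lkb1_Het. In WT enteroendocrine cells followed at 3312 CPM, fibroblasts at 3213 CPM and enterocytes at 2565 CPM, and crypt cells had 837 CPM. Enteroendocrine cells and fibroblasts did not differ beyond counting error. In Lkb1_Het gastric cells had 2030 CPM and Muc6 gland cells 983 CPM. Ftl1-ps1, a near-identical copy, held 761 UMIs in WT and 1025 in Lkb1_Het, so reads may be split between the copies and Ftl1 levels are uncertain to that extent.

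Tfrc, the receptor for circulating iron, was highest in the normal crypt. WT crypt cells stood at 231 CPM (211 to 252), unclassed epithelium at 143 CPM, enterocytes at 53.4 CPM and goblet cells at 50.0 CPM. Crypt cells and unclassed epithelium were clear of the classes below them. In Lkb1_Het no class approached the WT crypt: mast cells had 59.1 CPM, gastric cells 56.2 CPM, Muc6 gland cells 36.0 CPM and crypt cells 35.9 CPM. Hmox1, the haem enzyme, had its highest level in macrophages in both libraries. In WT it stood at 169 CPM in macrophages (15 UMIs in 5 of 22 cells), 33.8 CPM in plasma cells and 7.37 CPM in enterocytes. In Lkb1_Het it stood at 609 CPM in macrophages (430 UMIs in 121 of 267 cells), 99.2 CPM in endothelial cells, 87.6 CPM in fibroblasts and 8.46 CPM in gastric cells. Most of its UMIs came from other, more numerous or deeper cells: WT macrophages held 7.77% of them, plasma cells 43.5% and the epithelium 42.5%, and Lkb1_Het macrophages held 32.5% and the epithelium 52.1%.

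**Figure D1:**
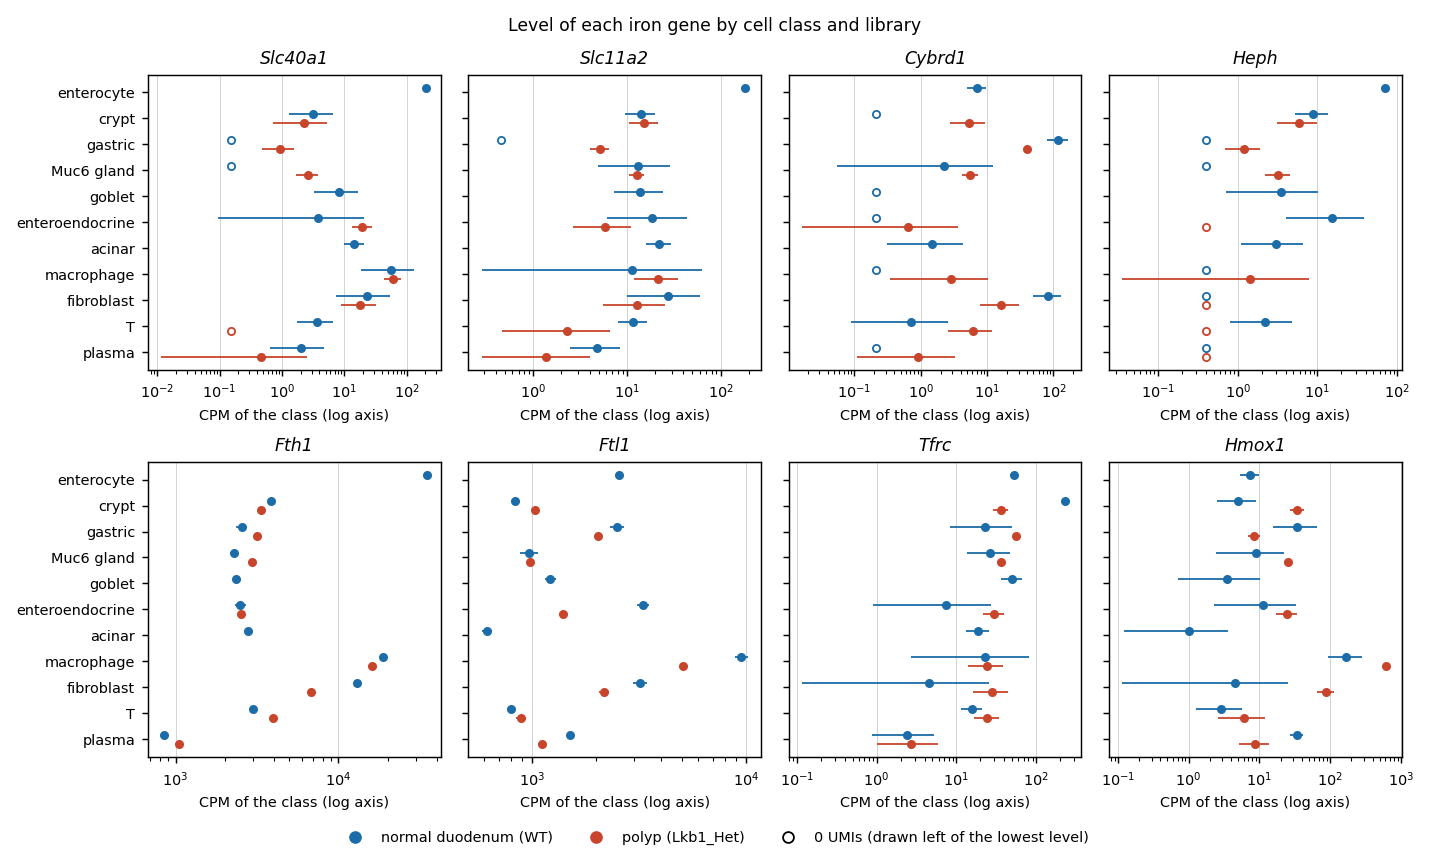
Level of each gene in CPM (log axis) by cell class, blue for the normal library and red for the polyp library, with bars for the 95% Poisson interval and open circles for classes with 0 UMIs. Slc40a1, Slc11a2, Heph and Fth1 are highest in normal enterocytes, Tfrc in normal crypt cells, Hmox1 and Ftl1 in macrophages, and Cybrd1 in normal gastric cells and fibroblasts. Classes under 20 cells are left out, other than the 14 gastric cells of the normal library.

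The first comparison set enterocytes against crypt cells of the same normal library, which asks what the cells gain or lose between the dividing crypt and the mature villus. A gene was counted as past the fold when its ratio to the median gene was at least 1.5, its interval was clear of 1 and both sums together held at least 20 UMIs. The median gene lay at -0.45 on the log2 scale here. All 8 members were past the fold, 7 higher and 1 lower in enterocytes, where 62.7% of the 9637 genes tested were past it (31.4% higher, 31.3% lower). Their median log2 ratio was 3.53, or 3.11 with Cybrd1 at its bound, against 0 over all genes. Slc40a1 was 85.9-fold higher (41.6 to 214), from 7 crypt UMIs in 4 of 90 cells. It was 489.7-fold with the stricter cell filter of at least 1000 UMIs and at most 15% mitochondrial UMIs, which left 68 crypt cells. Both values rest on very few crypt UMIs. The part of free enterocyte RNA in the crypt level, read below, was not tested. The differences were smaller for Slc11a2, at 17.5-fold (12.3 to 26.0), and Heph, at 11-fold (6.97 to 18.5). Fth1 was 12.3-fold higher and Ftl1 4.18-fold, so the heavy chain differed more than the light chain. Cybrd1 had 0 UMIs in crypt cells and was at least 6.95-fold higher, from a floor of 3 UMIs for the crypt sum. Hmox1 was 2.0-fold higher with an interval that barely left 1 (1.0052 to 4.31), and it was no longer past the fold with 4 markers per cell, with the stricter cell filter or in plain CPM. Tfrc was the only member lower in enterocytes, 3.17-fold (2.73 to 3.67).

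Of the 62 other iron and haem genes on the list, 42 were tested in this comparison, 21 higher and 7 lower in enterocytes. Over all 9637 genes tested 31.4% were higher and 31.3% lower. The 4 farthest above were Egln3, an oxygen-sensing hydroxylase (0 UMIs in crypt cells and at least 52.1-fold), Slc46a1, a folate and haem transporter (95.2-fold), Srxn1, a redox enzyme (62.0-fold), and Ncoa4, the receptor that sends ferritin to lysosomes (16.9-fold). The 3 farthest below were Slc39a8, a metal transporter (13.7-fold), and the metalloreductases Steap1 (7.89-fold) and Steap2 (5.99-fold).

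Ranking the cells instead of classing them showed how the change was spread. The 756 WT crypt, enterocyte and unclassed epithelial cells were ordered by the share of their UMIs in the 12 enterocyte markers and cut into 5 bins of 151 or 152 cells. Slc40a1 stood at 4.86, 56.1, 132, 174 and 232 CPM from the lowest bin to the highest. Slc11a2 stood at 14.9, 28.1, 63.2, 162 and 225 CPM. Slc40a1 had therefore reached 132 CPM in the third bin, where Slc11a2 was at 63.2 CPM, and the top values of both genes were alike. Heph went from 9.72 to 81.9 CPM and Fth1 from 4212 to 41261 CPM, each higher in every bin than in the one before. Tfrc ran the other way, at 202, 155, 131, 61.2 and 25.7 CPM. Depth differed between the bins, with medians of 21259, 2646, 2432, 1037 and 23420 UMIs per cell from the lowest bin to the highest, and its part in these values was not tested. The polyp epithelium, its gastric, Muc6 gland, crypt, enterocyte and unclassed cells, was ordered by the 8 gastric markers in the same way. Slc40a1 was at 4.38 CPM or below and Heph at 3.98 CPM or below in all of them. Cybrd1 stood at 4.23, 8.03, 9.43, 9.22 and 42.6 CPM, so its high level was in the bin that held 832 of the 975 gastric cells. Hmox1 went from 27.9 CPM in the bin lowest in gastric markers to 8.56 CPM in the highest.

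**Figure D2:**
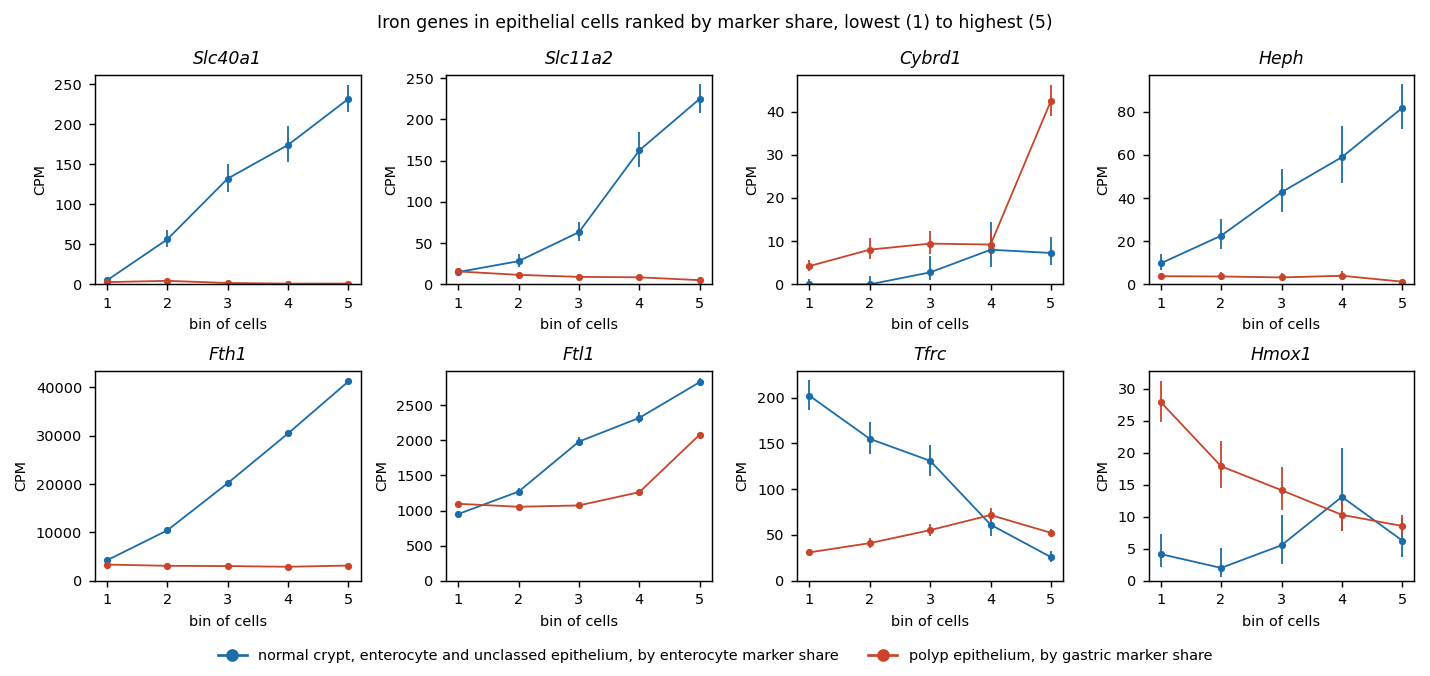
CPM of each gene in 5 bins of epithelial cells ranked by marker share, blue for the normal absorptive lineage ranked by enterocyte markers and red for polyp epithelium ranked by gastric markers, with 95% Poisson intervals. Slc40a1, Slc11a2, Heph and Fth1 are higher in each blue bin than in the one before and Tfrc is lower, while in the red series Cybrd1 stands apart in the last bin at 42.6 CPM. The vertical axes start at 0 and differ between panels.

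The second comparison set epithelial uptake against macrophage recycling within the normal library. Of the 8 members, 4 were higher and 2 lower in enterocytes than in macrophages, where 23.9% of 8188 genes were past the fold (13.2% higher, 10.7% lower). Their median log2 ratio was 1.0, against 0 over all genes. The importer Slc11a2 was 17.2-fold higher in enterocytes (3.08 to 679, from 1 macrophage UMI), and 2.60-fold with the mean over cells, in which each cell counts equally. Heph had 0 macrophage UMIs and was at least 2.21-fold higher. Fth1 was 1.97-fold higher (1.88 to 2.07), whereas Ftl1 was 3.49-fold lower (3.25 to 3.74). Hmox1 was 21.6-fold lower (11.1 to 40.0). With the mean over cells these were 5.46-fold and 79.6-fold lower. Slc40a1 was 3.8-fold higher in enterocytes by summed UMIs (1.62 to 11.7), a call that rests on 5 macrophage UMIs. When each cell counted equally, the levels were 150 CPM in enterocytes and 138 CPM in macrophages. The median gene then lay at 0.95 on the log2 scale, and relative to it Slc40a1 was 1.77-fold lower in enterocytes, so the direction for the exporter is not settled. Fth1 stood at 27150 and 14118 CPM in that reading, 1.0-fold relative to the median gene. Tfrc, with 2 macrophage UMIs, and Cybrd1, with 0, gave no call by summed UMIs. With the mean over cells, by the ratio alone, Tfrc was past the fold, 3.89-fold higher in enterocytes, and so was Cybrd1, against a macrophage level of 0. From the floor Cybrd1 was at least 0.220-fold, so the floor does not show it as higher. Import and ferroxidase genes were thus higher in enterocytes, haem breakdown and light chain ferritin in macrophages, and the exporter was seen in both.

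Of the 62 other iron and haem genes 38 were tested between these classes, 11 higher and 4 lower in enterocytes, where 13.2% of all 8188 genes tested were higher and 10.7% lower. Those higher were led by Ncoa4 (25.6-fold, 1 macrophage UMI), Gclm, a subunit of glutathione synthesis (at least 4.83-fold), Srxn1 (at least 2.61-fold) and Nqo1, a quinone reductase (at least 2.20-fold). Those lower were Trf, which encodes transferrin (at least 423-fold, 0 enterocyte UMIs), Hfe, the haemochromatosis gene (23.7-fold), and the biliverdin reductases Blvra (5.2-fold) and Blvrb (3.10-fold), which act on the product of haem oxygenase.

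Free RNA can add UMIs to other cells, so the enterocyte markers were read in them. In WT macrophages the 12 markers together stood at 0.936% of their enterocyte level, with 4 of them at 0. At the enterocyte ratio that share would bring 1.89 CPM of Slc40a1, against 56.5 CPM measured. In T cells the markers stood at 1.52% and would bring 3.07 CPM, against 3.64 CPM measured. In WT crypt cells they stood at 1.51% and would bring 3.04 CPM, against 3.20 CPM. The part of such RNA in these levels was not tested.

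The polyp library held no enterocyte class, so its gastric cells were set against its macrophages. Of 7 members tested, 5 were lower and 2 higher in gastric cells than in macrophages, where 40% of 11007 genes were past the fold (19% higher, 21% lower), and the median gene lay at -0.18 on the log2 scale. Hmox1 was 63.8-fold lower (52.0 to 78.8) and Slc40a1 57.5-fold lower (30.3 to 117). Fth1 was 4.51-fold lower, Slc11a2 3.66-fold lower (1.95 to 6.43; 6.10-fold with the mean over cells) and Ftl1 2.21-fold lower. Cybrd1 was 15.8-fold higher (4.34 to 130, from 2 macrophage UMIs) and Tfrc 2.64-fold higher (1.64 to 4.55). The Cybrd1 value was 8.49-fold without doublet removal, 31.8-fold without the mitochondrial limit and 46.8-fold with the mean over cells. Heph, with 1 and 17 UMIs, was not tested. In this library macrophages exceeded gastric cells in Hmox1, the importer, the exporter and both ferritin chains, and gastric cells exceeded macrophages in the reductase and the transferrin receptor. Among the other iron and haem genes 46 were tested, 10 higher and 16 lower in gastric cells. Nqo1 (12.1-fold), Egln3 (at least 4.63-fold), Gclm (4.19-fold) and the cytosolic aconitase Aco1, an iron regulatory protein (4.04-fold), led those higher. Spic, a transcription factor of iron-recycling macrophages (at least 220-fold), Cd163, the haemoglobin scavenger receptor (659-fold, 1 gastric UMI), Trf (108-fold) and Cp, the ferroxidase ceruloplasmin (243-fold), led those lower.

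**Figure D3:**
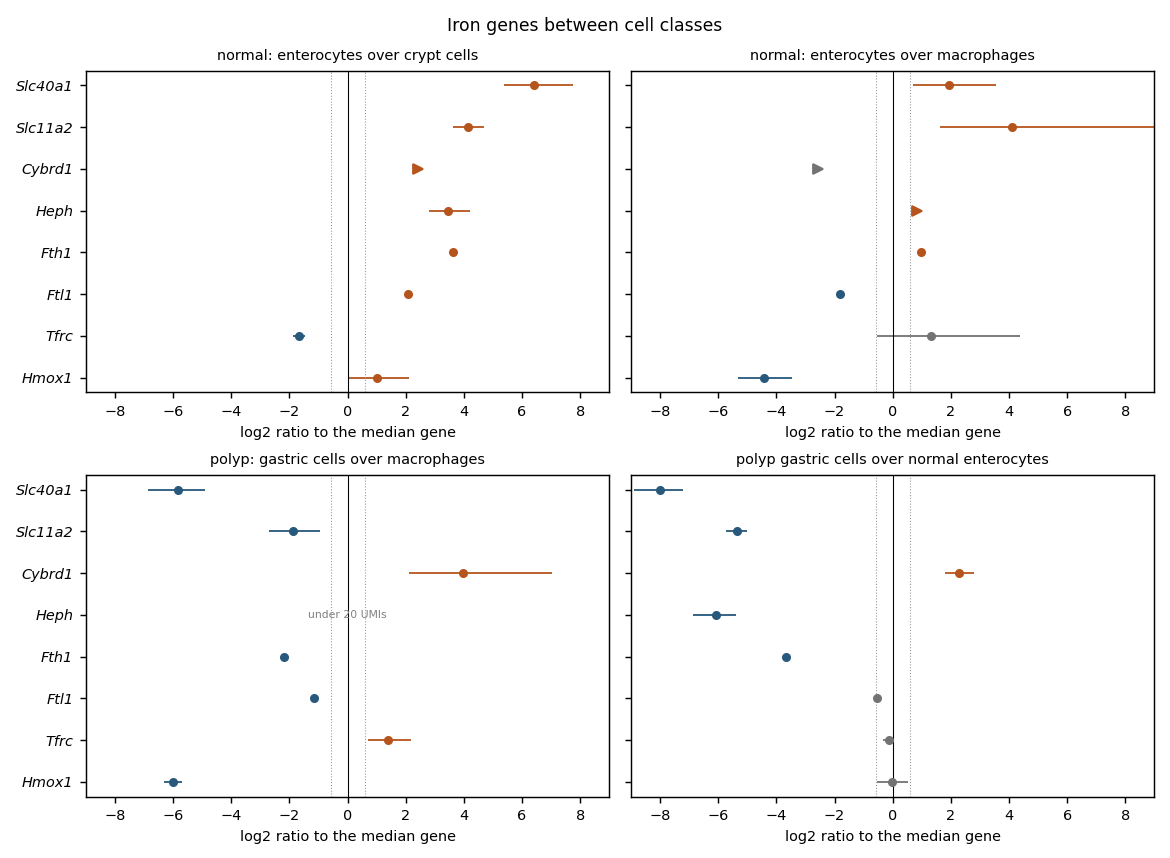
Log2 ratio of each gene relative to the median gene between classes, with 95% intervals, orange for higher past the fold, blue for lower and grey for neither; dotted lines mark 1.5-fold and a triangle marks the lower end of the interval where the second class had 0 UMIs. In normal tissue enterocytes exceed crypt cells in 7 of 8 genes, and in the polyp gastric cells are lower than macrophages in 5 of 7.

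The balance of the ferritin chains differed between classes in a way that levels alone do not show. The ratio of Fth1 to Ftl1 UMIs was 13.6 (13.4 to 13.8) in WT enterocytes, where both chains together made up 3.75% of all UMIs. It was 4.61 in WT crypt cells, 4.02 in fibroblasts, 1.98 in macrophages and 0.754 in enteroendocrine cells. Plasma cells had the lowest ratio, 0.566 (0.536 to 0.597), so that light chain UMIs outnumbered heavy chain UMIs. In Lkb1_Het gastric cells had 1.55 (1.52 to 1.57), macrophages 3.16, fibroblasts 3.11, smooth muscle cells 7.26 and plasma cells 0.947. Because transcripts of different genes may be captured with different efficiency, a ratio near 1 does not mean equal chains, but the same pair can be compared between classes. The ratio of the whole epithelium was 10.1 in WT and 2.18 in Lkb1_Het.

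**Figure D4:**
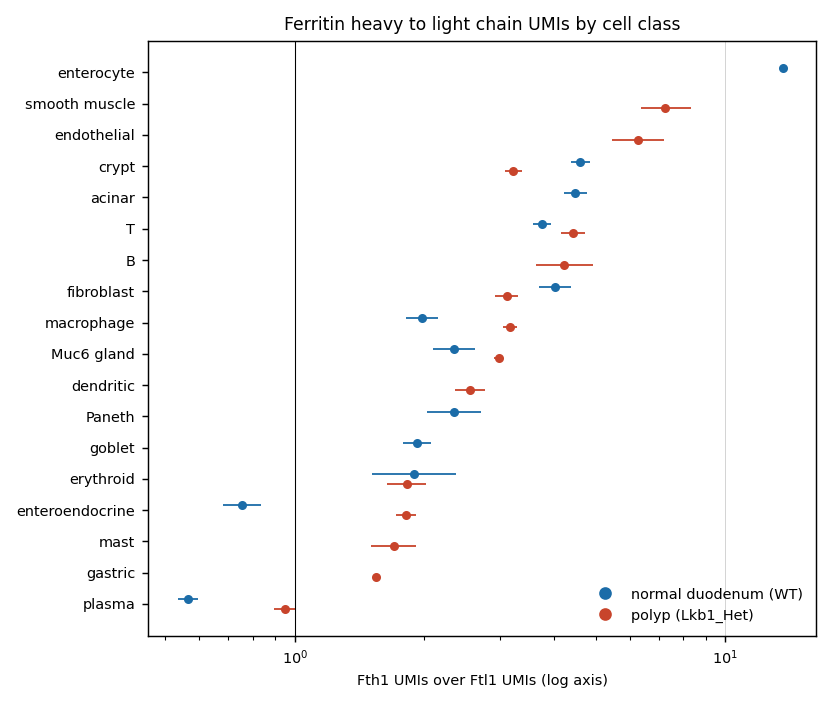
Ratio of Fth1 to Ftl1 UMIs (log axis) in each class of at least 20 cells, blue for the normal and red for the polyp library, with 95% intervals. Normal enterocytes stand at 13.6, above every other class drawn, and plasma cells at 0.566 and 0.947 have the lowest value of each library.

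The third question was how the polyp differed from normal duodenum. Over the whole epithelium, 961 WT and 4463 Lkb1_Het cells, 5 members were lower in the polyp and 2 higher, where 45.9% of 13960 genes were past the fold (24.3% higher, 21.6% lower). The members' median log2 ratio was -1.90, against 0 over all genes. The exporter Slc40a1 went from 99.5 to 2.66 CPM, 39.2-fold lower (32.3 to 48.0), and 24.2-fold with the mean over cells. Its partner Heph went from 37.3 to 2.83 CPM, 13.8-fold lower (11.3 to 17.1), and Slc11a2 from 86.6 to 9.72 CPM, 9.35-fold lower (8.34 to 10.5). Fth1 went from 18213 to 3116 CPM, 6.13-fold lower, and Tfrc from 103 to 47.2 CPM, 2.29-fold lower. Ftl1 went from 1808 to 1427 CPM, 1.33-fold lower and short of the fold. Cybrd1 was 3.19-fold higher (2.50 to 4.14), from 5.28 to 17.7 CPM, and Hmox1 2.52-fold higher (2.0 to 3.21), from 6.19 to 16.4 CPM. Of the 70 Cybrd1 UMIs of WT epithelium, 31 came from the 14 gastric cells, the class in which the WT level was above that of Lkb1_Het. The makeup of the epithelium moved with these values: enterocytes were 384 of 961 cells in WT and 1 of 4463 in Lkb1_Het, and gastric cells 14 and 975. The macrophage markers stood at 0.107% of their macrophage level in polyp epithelium, which at the macrophage ratio would bring 0.653 CPM of Hmox1, against 16.4 CPM measured.

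From normal enterocytes to polyp gastric cells, which differ in both type and library, 4 members were lower and 1 higher. Slc40a1 was 256-fold lower (149 to 482; 136-fold with the mean over cells), Heph 68.2-fold, Slc11a2 41.2-fold and Fth1 12.9-fold, and Cybrd1 was 4.86-fold higher (3.50 to 6.95). Ftl1 (1.47-fold lower), Tfrc (1.10-fold lower) and Hmox1 (1.01-fold lower, 0.689 to 1.46) were short of the fold. Of 11256 genes, 57.8% were past the fold in this comparison (28.3% higher, 29.5% lower), and the median gene lay at 0.21 on the log2 scale. With the stricter cell filter and with the mean over cells Ftl1 was past the fold as well, lower in gastric cells.

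Muc6 gland cells (20 in WT, 1343 in Lkb1_Het) were added to the comparisons after the cells had been counted. None of the 8 members was past the fold there, where 14% of 10663 genes were (7.12% higher, 6.89% lower) and the median gene lay at 0.28. The 20 WT cells leave wide intervals, so this does not show that the members were alike. Slc11a2 stood at 13.3 and 12.7 CPM (ratio 0.787, 0.352 to 2.18), Fth1 at 2282 and 2926 CPM (1.06, 0.992 to 1.12) and Tfrc at 26.5 and 36.0 CPM (1.12, 0.632 to 2.18). Hmox1 stood at 8.84 and 25.2 CPM (2.35, 0.907 to 8.70), and in plain CPM it was past the fold. With the mean over cells, by the ratio alone, 4 members were past it, namely Hmox1, Cybrd1 (1 WT UMI), and Slc40a1 and Heph against 0 WT UMIs. From the floor Slc40a1 was at least 0.325-fold and Heph at least 0.400-fold, so the floor does not show them as higher. Slc40a1 and Heph had 0 UMIs in the 20 WT cells, where 3 UMIs of 452246 would be 6.63 CPM, and 2.62 and 3.22 CPM in Lkb1_Het, so a difference was not detectable at this depth. Gastric cells (14 and 975) are given side by side only: Cybrd1 stood at 117 CPM (79.7 to 166) in WT and 39.5 CPM (36.3 to 42.9) in Lkb1_Het, and Hmox1 at 34.0 CPM (15.6 to 64.6) and 8.46 CPM. The cells with crypt markers, which do not match between the libraries, had Tfrc at 231 CPM in WT and 35.9 CPM in Lkb1_Het, Hmox1 at 5.03 and 34.1 CPM, and Slc40a1 at 3.20 and 2.24 CPM. Enteroendocrine cells (38 and 214), also added later, were not the same kinds in both libraries: their leading genes included Tph1, Sct and Tac1 in WT and Ghrl, Pyy, Gast and Sst in Lkb1_Het. They had Tfrc 4.36-fold higher (1.14 to 37.1, from 2 WT UMIs) and Ftl1 2.16-fold lower (1.995 to 2.34) in the polyp, where 25.4% of 7875 genes were past the fold (12.6% higher, 12.8% lower) and the median gene lay at -0.14. Tfrc was 7.48-fold higher with 4 markers per cell, 8.23-fold with the stricter cell filter and no longer past the fold with the mean over cells, at 1.44-fold. Slc40a1 was 5.69-fold higher in these cells with an interval from 0.946 to 232, from 1 WT UMI, and without a call. It was past the fold with the stricter cell filter (at least 1.81-fold, WT then at 0 UMIs), with 4 markers (6.16-fold) and with the mean over cells (9.42-fold), as was Hmox1 with the last (5.24-fold).

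Macrophages (22 in WT, 267 in Lkb1_Het) had 1 member higher and 1 lower of the 4 that could be tested, where 13.2% of 4031 genes were past the fold (6.62% higher, 6.6% lower). Hmox1 went from 169 CPM (94.8 to 279) to 609 CPM (553 to 669), 3.50-fold higher (2.10 to 6.30), and 1.92-fold higher with the mean over cells. Ftl1 went from 9519 to 5067 CPM, 1.93-fold lower (1.79 to 2.08), and 1.63-fold lower with the mean over cells, from 6237 to 4699 CPM. The 3 WT macrophages with the highest Ftl1 level held 58.0% of the Ftl1 UMIs of the 22. The median cell stood at 4215 CPM in WT and 4014 CPM in Lkb1_Het, so the summed difference rests largely on few WT cells. Fth1 was 1.21-fold lower and short of the fold. Slc40a1 stood at 56.5 CPM (18.3 to 132) and 59.5 CPM (42.9 to 80.4), a ratio of 1.02 with an interval from 0.406 to 3.32. With the mean over cells it stood at 138 and 87.9 CPM, 1.92-fold lower in the polyp relative to the median gene. The other 4 members had under 20 UMIs over both sums. Fibroblasts (37 and 224) had Hmox1 20.3-fold higher in the polyp (3.49 to 816), from 1 UMI in WT to 54 in Lkb1_Het, or 4.59 and 87.6 CPM. Cybrd1 was 4.79-fold lower (2.10 to 11.6), from 82.6 to 16.2 CPM, and Fth1 1.80-fold lower (1.71 to 1.89). The WT Cybrd1 level came from 18 UMIs in 16.2% of the 37 cells. When each cell was thinned to 1000 UMIs, 3.1% of 32 WT and 1.7% of 181 polyp fibroblasts had a Cybrd1 UMI. With the mean over cells Hmox1 was 12.2-fold higher and Cybrd1 2.79-fold lower, the latter from 39.7 to 14.0 CPM. Ftl1 was 1.39-fold lower and short of the fold. These were 3 of 4 members tested, where 21.7% of 5112 genes were past the fold (11.7% higher, 9.96% lower). The median depth moved with the libraries, at 5580 UMIs per WT fibroblast and 2088 per Lkb1_Het fibroblast, and its part was not tested. The leading genes of the fibroblasts included C3, Gsn and Igfbp6 in WT and Sfrp1, Col3a1 and Dpt in Lkb1_Het, so the kinds of fibroblast were not matched. The macrophage markers stood at 0.924% of their macrophage level in polyp fibroblasts, which would bring 5.63 CPM of Hmox1. Gastric markers stood at 13.4% of their gastric level there and would bring 1.13 CPM of it.

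Among the other iron and haem genes in the whole epithelium 51 were tested, 10 higher and 19 lower in the polyp. Over all 13960 genes tested there 24.3% were higher and 21.6% lower. Trf (54.9-fold, from 7 UMIs), Hamp, the iron hormone hepcidin that removes ferroportin from the cell surface (52.8-fold, from 1 UMI), Ltf, the iron-binding lactoferrin (5.66-fold), and the metalloreductase Steap4 (10.1-fold) led those higher. Abcg2, a porphyrin and drug exporter (57.4-fold), Slc46a1 (19.9-fold), Ncoa4 (4.02-fold) and the metal transporter Slc39a14 (3.61-fold) led those lower. In macrophages 23 were tested: Spic (0 WT UMIs, at least 1.5-fold) and Bmp2, a growth factor (2.93-fold), were higher, and Blvra (4.51-fold) and Blvrb (1.89-fold) lower. Over all genes tested in macrophages 6.62% were higher and 6.6% lower. In fibroblasts 28 were tested, 4 higher and 8 lower, where 11.7% of all genes tested were higher and 9.96% lower. Bmp2 (3.66-fold), Nqo1 (12.8-fold), Gclm (3.76-fold) and Blvrb (2.13-fold) were higher, and Slc39a8 (14.3-fold), Ncoa4 (7.02-fold), the haemoglobin carrier Hp (8.65-fold) and the ferritin receptor Scara5 (6.65-fold) led those lower.

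**Figure D5:**
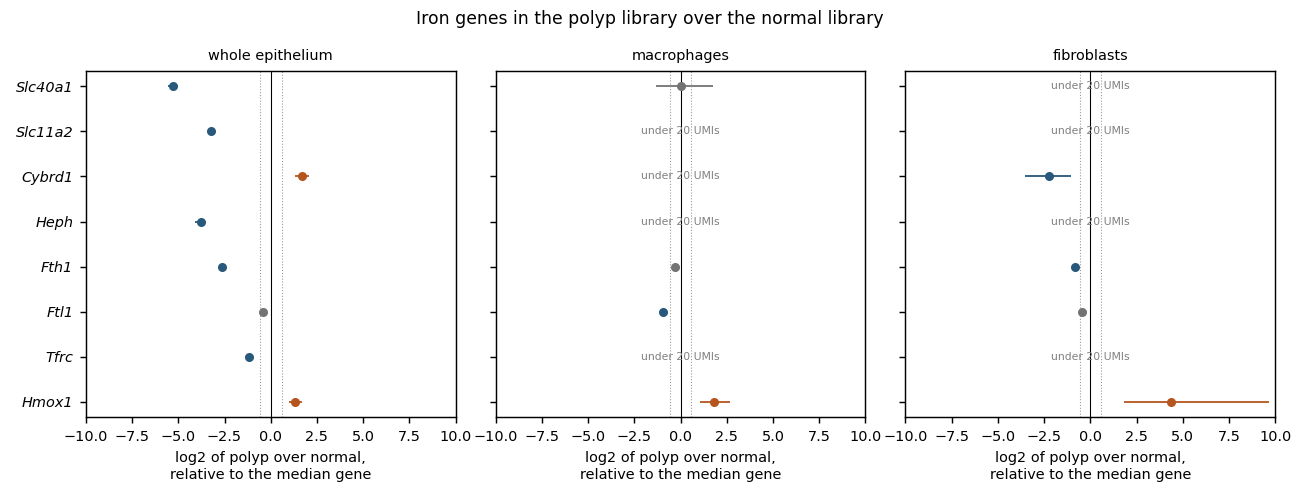
Log2 ratio of polyp over normal for each gene relative to the median gene, with 95% intervals, in whole epithelium, macrophages and fibroblasts, orange for higher past the fold, blue for lower and grey for neither. In the epithelium Slc40a1 lies lowest at -5.29, and Hmox1 lies above 0 in all 3 panels. Genes with under 20 UMIs over both sums are marked and not drawn.

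The lymphoid classes were also added after the cells had been counted. The leading genes of the T cells included Gzma, Gzmb and Nkg7 in WT and S100a4, Emb and Icos in Lkb1_Het, so the kinds of T cell were not matched. In T cells (797 and 566) 1 of 4 members tested was past the fold, where 34.1% of 8823 genes were (18.2% higher, 15.9% lower): Slc11a2 was 4.96-fold lower in the polyp (1.55 to 25.3), from 32 UMIs to 3, and 2.49-fold with 2 markers per cell and 9.14-fold with 4. Enterocyte RNA in WT T cells would bring 2.77 CPM of Slc11a2, against 11.6 CPM measured. Fth1 was 1.36-fold higher, Ftl1 1.15-fold and Tfrc 1.60-fold (0.981 to 2.59), all without a call, but Tfrc was past the fold without doublet removal and with the mean over cells. In plasma cells (153 and 271) 2 of 3 were past the fold, where 23.4% of 6081 genes were (12.2% higher, 11.1% lower), and the median gene lay at 0.56 on the log2 scale. Hmox1 was 5.76-fold lower (3.47 to 10.0), from 84 UMIs to 19 (11.5-fold with 2 markers per cell), and Ftl1 2.0-fold lower (1.9 to 2.1), the latter not in plain CPM. With the mean over cells Hmox1 was 5.44-fold lower. When each cell was thinned to 1000 UMIs, 1.35% of 148 WT and 1.49% of 268 polyp plasma cells had an Hmox1 UMI, which were 2 and 4 cells.

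Shares of cells with a UMI depend on depth, so each cell was thinned to 1000 UMIs and shallower cells were left out. Of 274 WT enterocytes, 22.3% (17.5 to 27.7) had a Slc40a1 UMI, 15% a Slc11a2 UMI, 10.9% a Heph UMI and 5.47% a Tfrc UMI. Unthinned, with a median of 12362 UMIs per cell, the shares were 54.7%, 50.5%, 41.4% and 29.9%. Of 782 WT T cells, at a median of 3186 UMIs, 0.256% had a Slc40a1 UMI after thinning. Of 90 WT crypt cells 13.3% had a Tfrc UMI, against 88.9% unthinned, and 0 had a Slc40a1 UMI after thinning (upper end of the interval 4.02%), against 4.44% unthinned. Of 204 polyp macrophages 36.8% (30.1 to 43.8) had an Hmox1 UMI and 6.37% a Slc40a1 UMI. Of 18 WT macrophages 5.56% (0.141 to 27.3), a single cell, had an Hmox1 UMI. Of 815 polyp gastric cells 2.94% had a Cybrd1 UMI and 0.123% a Slc40a1 UMI, and in polyp T cells the shares were 0.717% and 0%.

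The genes most like each member across 24 pairs of class and library, by Pearson's r of log2(CPM + 1) among 10833 genes, are given as a description, since the pairs of a library share its depth and RNA background. Slc40a1 ran closest to Chp2 (r = 0.825), Slc6a19 (0.815) and Aldh3b1 (0.794). Slc11a2 ran closest to Tbc1d13 (0.862), Acy3 (0.855) and Parp12 (0.843), and Heph to Efna1 (0.838), Fahd1 (0.820) and Ehhadh (0.820). Cybrd1 was closest to Aldh1a7 (0.741), Aqp3 (0.740) and Tlcd2 (0.735). Fth1 was closest to Plin2 (0.847), Pitpna (0.828) and Gpi1 (0.819), and Ftl1 to its copy Ftl1-ps1 (0.759), Ctsz (0.696) and Prkcd (0.695). Tfrc was closest to Cluh (0.917), Bdh1 (0.888) and the mitochondrial mt-Nd5 (0.888), and Hmox1 to Mcl1 (0.870), Ctsb (0.858) and Sirpa (0.842). Slc40a1 and Slc11a2 were not among the closest genes of each other.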

How the data were processed

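Values were UMI counts per gene and barcode as deposited by the authors. The submitters' processing notes name Cell Ranger 3.0.0 and mm10, whereas the matrix header, per the file headers, names Cell Ranger 5.0.0. Dissociation, per the labels, used 0.2% collagenase II on 0.5 mm3 pieces (37 °C, 40 min) and a 40 µm strainer. Barcodes with under 500 UMIs, under 250 genes or over 25% mitochondrial UMIs were left out. Scrublet (scanpy 1.11.5) marked 0 doublets by itself, so the highest scores up to 0.8% per 1000 cells were removed, 85 in WT and 573 in Lkb1_Het. A cell joined the class whose marker list had the highest share of its UMIs over the mean share, given at least 3 different markers and 2-fold enrichment, and for epithelial classes at least 2 of 6 epithelial genes. Epithelial cells of no class are called unclassed epithelium (282 and 1711), and the whole epithelium includes them. This rule was set after the data had been seen.

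Counts were summed per class and library as CPM with exact Poisson intervals. Ratios carry exact conditional binomial intervals and are relative to the median gene, and shares carry Clopper-Pearson intervals. A sum of 0 was set to a floor of 3 UMIs for a fold. Ratios were tested on simulated data. The members and lists were chosen with earlier results of these data known. All 8 members are named, and at most 4 of the 62 other iron and haem genes in each direction, farthest by the interval end nearest 1. Software was Python 3.11.15, numpy 2.4.6, pandas 2.3.3, scipy 1.17.1 and matplotlib 3.10.9, with seed 1. The doublet rate and the Muc6 gland, enteroendocrine, T and plasma cell comparisons were chosen after the data had been seen. The settings varied are given with their effects at the end. A gene that this rule would also name is not reported here.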

Additional observations from a re-analysis of the deposited data

Results flagged for a closer look

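Several members moved in opposite directions between polyp and normal in different sets of cells. The differences between these sets were not tested, since each rests on 1 library per group. Cybrd1 was 3.19-fold higher in the polyp in whole epithelium and 4.79-fold lower in fibroblasts, whose leading genes differed between the libraries. Whole epithelium is a mixture of classes whose makeup differed, with 14 gastric cells in WT and 975 in Lkb1_Het. In gastric cells, given side by side only, Cybrd1 and Hmox1 were lower in Lkb1_Het. In Muc6 gland cells both were higher in Lkb1_Het, without a call. Tfrc was 4.36-fold higher in enteroendocrine cells, from 2 WT UMIs and not past the fold with the mean over cells, and 2.29-fold lower in whole epithelium. Hmox1 was 5.76-fold lower in plasma cells, whereas it was 2.52-fold higher in whole epithelium, 3.5-fold higher in macrophages and 20.3-fold higher in fibroblasts. The shares of plasma cells with an Hmox1 UMI after thinning were 1.35% in WT and 1.49% in Lkb1_Het.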

How the results depend on the processing

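No paired analysis was possible because each group is 1 library, and for the same reason no library could be left out. Of 336 readings of called member ratios under 8 other settings (no mitochondrial limit; at least 1000 UMIs and at most 15% mitochondrial UMIs; at least 4 or 2 markers per cell; no doublet removal; mean over cells; plain CPM; no minimum of UMIs), 329 kept their call, 7 lost it and 17 readings of ratios that were tested but not called became calls. Of those 17, 12 came from the mean over cells, where a call rests on the ratio alone, without an interval. The 40 of 43 calls kept under that setting rest on the ratio alone too. With no minimum of UMIs all 43 called ratios kept their call by construction, since that setting only adds genes to those tested. The sign turned for 2 ratios, both between enterocytes and macrophages with the mean over cells: Slc40a1 at -0.82 and Fth1 at -0.00284 on the log2 scale, where the median gene moved to 0.95. The members past the fold in T cells went from 1 to 2 without doublet removal, 2 with the mean over cells and 3 with no minimum of UMIs, where the added genes had been under 20 UMIs and untested, so they are outside those 17. In Muc6 gland cells they went from 0 to 4 with the mean over cells and 1 in plain CPM, and in plasma cells from 2 to 1 in plain CPM. The share of WT enterocytes with a Slc40a1 UMI went from 22.3% of 274 cells to 7.55% of 384 cells when cells were thinned to 500 UMIs. Fewer UMIs per cell lower such a share by construction. The 110 cells left out before as too shallow also entered, and their part was not tested. The stricter cell filter was not run for WT macrophages (17 cells) and Muc6 gland cells (19), nor 4 markers for the latter (19). Gastric and crypt cells of the 2 libraries were not compared, so no setting applies there. Depth limits the precision: WT macrophages gave 5 Slc40a1 UMIs in 22 cells, and WT Muc6 gland cells 0 in 20.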

Other observations

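Some genes of iron handling outside the 8 members showed class patterns not yet described. Trf, which encodes transferrin, was at 248 CPM in WT and 370 CPM in Lkb1_Het macrophages. In Muc6 gland cells it had 0 of 452246 UMIs in the 20 WT cells and 417 of 9942639 UMIs in the 1343 polyp cells. The raw counts are therefore not on the same scale. The quinone reductase Nqo1 stood at 440 CPM in polyp gastric cells and 70.0 CPM in WT enterocytes. Hif1a, the oxygen-sensing transcription factor, was 6.26-fold higher in polyp T cells than in WT T cells, at 445 and 73.1 CPM. Epas1, its relative, was 20.4-fold higher there, from 4 UMIs in WT to 38. Of the 62 other iron and haem genes 36 were tested in T cells, 11 higher and 3 lower in the polyp. Over all 8823 genes tested there 18.2% were higher and 15.9% lower. The T cells of the libraries led with different genes, so these ratios may reflect different kinds of T cell, which was not tested. All values given here are of 1 library per group.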
